A study of Mus musculus with 18 samples.

Results

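Gonads of Elavl2 knockout (KO) and wild type (WT) mouse embryos were compared at E17.5, a stage late in gestation. The comparison used the arrays labelled KO 1 to KO 3 and WT 1 to WT 3 at this stage, 6 of the 18 arrays of a series that also covers E15.5 and postnatal day 0 (P0). Both groups were whole XX gonads, labelled as ovary from female embryos, and differed in genotype as labelled, KO or wild type. The strain, the allele and the deleted part of Elavl2 are not given in the sources used here. Each sample is labelled as a mixed sample and is not said to come from a separate animal, so p-values here cover only the variation from sample to sample, which may be technical.

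ELAVL2 is an RNA-binding protein of the ELAV (Hu) family, whose members bind U-rich and AU-rich sequences in messenger RNAs and affect their stability and translation. In the fetal mouse ovary, germ cells enter meiosis after exposure to retinoic acid, pass through prophase and then arrest in it. Around birth they become enclosed by pregranulosa cells in primordial follicles, and some begin the growth that loads the egg with stored RNAs and proteins. A network of oocyte transcription factors that includes FIGLA, NOBOX and LHX8 drives genes of this programme, among them those for the zona pellucida and for maternal-effect proteins.

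Levels are log2 signals minus the array's 75th percentile, so a level below 0 is dimmer than that percentile and levels of different genes are not compared. Changes are KO minus WT on the log2 scale, with standard errors (SE) from limma, and genes with a Benjamini-Hochberg adjusted p below 0.05 over the 19290 tested are those called. Replicate 3 of each genotype was read in run A on the same slide, and replicates 1 and 2 in run B, on another scanner model. In run B the KO arrays lay on a slide of their own and the WT arrays on another, so slide and genotype cannot be told apart there. Between 65.05% and 75.15% of probes were well above background on each of the 6 arrays, and Pearson's r across genes, which are not independent replicates, lay between 0.965 and 0.994 for pairs of these arrays. With 3 arrays in each group, their number limits the precision. Germ cell markers (Ddx4, Dazl, Mael, Dppa3 and Sycp3) and the pregranulosa markers Foxl2, Wnt4, Rspo1, Fst, Lgr5 and Kitl were well above background on all 6 arrays. Among the listed testis Sertoli markers, Dmrt1 was above it on none, and Sox9 and Amh were above it on all 6.

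The knocked-out gene was measured by a bright and a dim probe, both on the minus strand of chromosome 4 in mm9. The bright probe, at chr4:90918411-90918470, read 2.98, 2.77 and 2.19 in KO 1, KO 2 and KO 3, against 3.58, 3.60 and 3.35 in WT 1, WT 2 and WT 3. All KO arrays lay below all WT arrays, and KO 3 was the lowest. The change was -0.87 (SE 0.12, adjusted p = 0.00459; adjusted p = 0.0353 with the replicate number as a block). It was -1.17 within run A and -0.72 within run B, and leaving out any single array gave -0.97 to -0.72 with the call kept. The dim probe, at chr4:90919418-90919477, gave -0.97. Both probes still gave signal in KO gonads, and because the deleted part is not known here, neither value checks the genotype labels. Of the other ELAV family genes, Elavl1 was read by probes that moved in opposite directions, the brightest by 0.38 (adjusted p = 0.0428; 0.103 with the block; no longer called without any single array, 0.32 to 0.46) and another by -0.53 (adjusted p = 0.0124). Elavl3 and Elavl4 gave 0.44 and 0.08 and were not called.

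Between KO and WT gonads 799 genes were called, 4.14% of those tested, of which 256 (1.33%) rose and 543 (2.81%) fell. Counts of called list members below are to be read beside these shares. The median change over all genes was 0.05, at 0.04 in run A and 0.06 in run B. At least 2-fold changes were seen for 30 of the rises and 70 of the falls. The 3 KO arrays and the 3 WT arrays did not overlap for 653 of the called genes, and for 19.1% of all genes tested. All 799 had the same sign in both runs, which the choice of called genes favours, since arrays of both runs entered the test. Over all genes tested, Pearson's r between the changes in the 2 runs was 0.19.

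A block for the replicate number also absorbs the run. With it 165 genes were called, 0.855% of those tested, 30 higher and 135 lower in KO, and 155 of them were among the 799. Leaving out a single array gave 1031 calls without KO 1, 140 without KO 2, 153 without KO 3, 251 without WT 1, 363 without WT 2 and 153 without WT 3, and 78 genes remained called under all 6 omissions. Without KO 3 the run term absorbs WT 3, and without WT 3 it absorbs KO 3. Both omissions thus leave the run B contrast, and they are not separate checks, here or for the genes below. KO 1 was the KO array nearest to WT for 300 of the 543 falls and 113 of the 256 rises. Among the 25 largest rises and the 25 largest falls that were eligible to be named, 11 and 10 kept their call with the block.

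**Figure D1:**
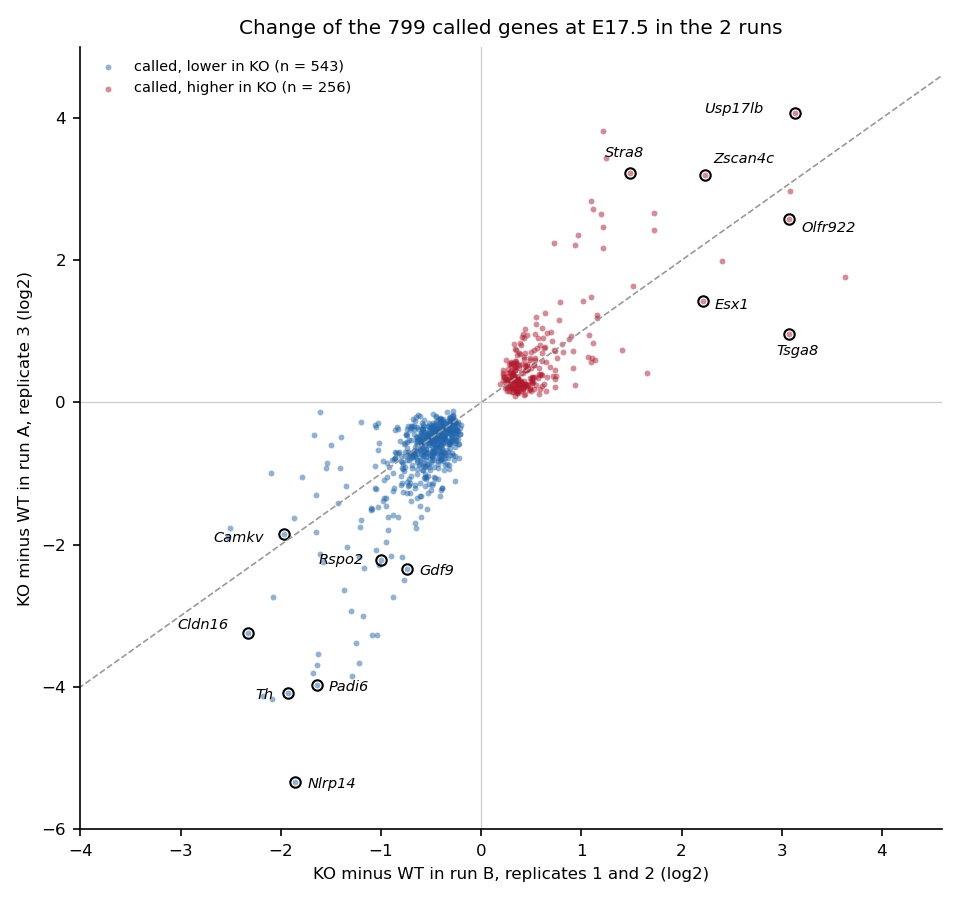
Change (KO minus WT, log2) of each of the 799 called genes within run B (horizontal axis, mean of KO 1 and KO 2 minus mean of WT 1 and WT 2) and within run A (vertical axis, KO 3 minus WT 3), with red points for the 256 rises, blue points for the 543 falls and a dashed line of equality. Every point lies in a quadrant of like sign, which the choice of called genes favours. Camkv and Usp17lb are large in both runs, and Nlrp14 and Gdf9 lie far below the line, with larger falls in run A.

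Genes of the oocyte NLRP family, which encode cytoplasmic proteins of the oocyte that include maternal-effect factors, were among the largest falls. Of 8 tested members, 0 rose and 3 fell, where 2.81% of all genes fell, with a median change of -2.03 against 0.05 over all genes. The KO and WT arrays did not overlap for 3 members, and for 19.1% of all genes. Nlrp14 read -4.11, -5.78 and -6.44 in KO 1 to KO 3, against -2.25, -3.93 and -1.10 in WT 1 to WT 3. KO 1 lay close to WT 2, and WT 3 stood highest. Nlrp14 changed by -3.02 (SE 0.67, adjusted p = 0.0267), at -5.33 in run A and -1.86 in run B, and was well above background on 1 KO array and 3 WT arrays. Nlrp5, the maternal-effect gene also called Mater, read -2.77, -4.43 and -3.67 in KO arrays, against -2.26, -1.58 and 0.14 in WT arrays, a change of -2.39 (SE 0.48, adjusted p = 0.0185). Its KO and WT arrays did not overlap, though KO 1 and WT 1 were near each other. Nlrp4a was not well above background on any KO array and was at least 2.19-fold lower in KO (adjusted p = 0.00393, with the block 0.0257). Its call was kept under each array left out. A dimmer probe of Nlrp4a gave -0.71 (limma, adjusted p = 0.349 over all kept probes), with KO 3 above WT 1 and WT 2.

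The calls of Nlrp14 and Nlrp5 did not hold with the block (adjusted p = 0.086 and 0.0758). Nlrp14 was also lost without KO 2, KO 3, WT 1 or WT 3 (-3.83 to -1.86 over single omissions) and Nlrp5 without KO 2, KO 3, WT 2 or WT 3 (-3.06 to -1.68). Members that were not called included Nlrp4f at -1.86, Nlrp4b at -2.21 and Nlrp4c at -1.67 (adjusted p = 0.0689, 0.123 and 0.19), while Nlrp2 and Nlrp9a gave 0.37 and 0.41. The Nlrp4 genes are close relatives, and probes of this array may not separate them. Without KO 1 the list had 6 called members, and the fewest over single omissions was 1.

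Maternal-effect genes and genes of the cytoplasmic lattice, a store of proteins in the oocyte, gave 0 rises and 5 falls among 21 tested. The list's median was -0.08, and 2.81% of all genes fell. Padi6, which encodes a lattice protein, read -0.68, -2.97 and -2.18 in KO 1 to KO 3, against 0.17, -0.53 and 1.79 in WT 1 to WT 3. KO 1 was within reach of WT 2, and WT 3 was the highest array. The change was -2.42 (SE 0.54, adjusted p = 0.0272), at -3.97 in run A and -1.64 in run B. Npm2, the oocyte nucleoplasmin, read -2.37, -2.54 and -2.38 in KO arrays, against -1.22, -1.81 and -0.59 in WT arrays, and fell by 1.22 (SE 0.22, adjusted p = 0.013). Here the KO arrays were alike and the WT arrays spread. Zbed3, of the subcortical maternal complex, changed by -0.94 (adjusted p = 0.00756) and Khdc3, of the same complex, by -2.04 (adjusted p = 0.0457). With the block Zbed3 kept its call (adjusted p = 0.0497), and Padi6, Khdc3 and Npm2 did not (0.0777, 0.108 and 0.0573). Without KO 2, KO 3, WT 1 or WT 3 the calls of these last 3 genes ended, at -3.29 to -1.64, -2.81 to -1.22 and -1.47 to -0.93 over single omissions, and that of Zbed3 ended without KO 3 or WT 3, at -0.78.

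Padi6 and Tcl1 are from the oocyte falls. Camkv is a fall of like size in both runs by its brighter probe, and Esx1 a rise kept with the block. Promoters of these 4 called genes are printed here to set sequence next to the changes. Each is the 250 bases before the annotated start, 5′ to 3′ on the gene's strand, from RefSeq on GRCm38.p6, with capitals marking each E-box (CANNTG), the motif that basic helix-loop-helix factors such as FIGLA bind. They lie at chr4:140742644-140742893 (minus), chr12:105222738-105222987 (minus), chr9:107935670-107935919 (plus) and chrX:137120327-137120576 (minus), in that order.
Padi6: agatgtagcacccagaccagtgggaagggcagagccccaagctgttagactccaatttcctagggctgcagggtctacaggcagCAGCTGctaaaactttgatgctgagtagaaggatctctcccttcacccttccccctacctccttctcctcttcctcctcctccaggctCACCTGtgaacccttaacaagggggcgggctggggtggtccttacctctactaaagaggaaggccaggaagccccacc
Tcl1: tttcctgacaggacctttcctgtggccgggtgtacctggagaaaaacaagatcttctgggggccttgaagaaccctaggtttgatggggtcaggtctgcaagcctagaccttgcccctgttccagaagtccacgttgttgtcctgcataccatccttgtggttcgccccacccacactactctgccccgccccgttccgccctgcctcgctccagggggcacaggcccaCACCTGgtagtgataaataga
Camkv: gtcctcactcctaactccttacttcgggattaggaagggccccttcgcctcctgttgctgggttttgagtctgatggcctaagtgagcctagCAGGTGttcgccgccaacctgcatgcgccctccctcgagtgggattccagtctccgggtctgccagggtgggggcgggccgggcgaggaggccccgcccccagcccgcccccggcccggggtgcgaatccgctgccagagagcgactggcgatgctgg
Esx1: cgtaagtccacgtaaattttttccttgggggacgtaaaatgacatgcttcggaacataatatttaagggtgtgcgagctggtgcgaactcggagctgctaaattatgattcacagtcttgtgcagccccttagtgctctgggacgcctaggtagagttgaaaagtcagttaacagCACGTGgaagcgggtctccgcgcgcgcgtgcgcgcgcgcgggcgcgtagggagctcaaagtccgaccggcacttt
An E-box was present in 57.2% of 166 promoters of rises and 65.2% of 422 promoters of falls, against 63.7% of 12947 promoters of all genes tested. The NOBOX element TAATTG was in 4.82% of rises, 5.69% of falls and 5.72% of all, and CNCCTCAG, a motif reported for STRA8, in 9.04%, 7.82% and 8.70%. Motifs were searched on both strands, and a match is a description of letters only.

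Oocyte-specific genes that sit in clusters of related copies (the Oog, Oas1, Tcl1 and similar families) gave 0 rises and 3 falls among 19 tested. The list's median was -0.40, and 2.81% of all genes fell. Tcl1, which encodes a coactivator of the AKT kinase, read -0.69, -2.35 and -1.80 in KO arrays, against -0.22, -0.07 and 0.83 in WT arrays. No KO array reached a WT array, with KO 1 the nearest. It changed by -1.79 (SE 0.37, adjusted p = 0.0191), Oog1, an oocyte gene of a leucine-rich repeat family, by -2.78 (SE 0.70, adjusted p = 0.044) and Oas1e, an oocyte-expressed relative of oligoadenylate synthetase, by -1.78 (SE 0.44, adjusted p = 0.0404). None of these 3 was called with the block (adjusted p = 0.0761, 0.0608 and 0.112), and single omissions gave -2.39 to -1.37, -3.67 to -2.09 and -2.34 to -1.04, with the calls ended without KO 2, KO 3 or WT 3, and also without WT 1 for Oog1 and Oas1e or WT 2 for Tcl1. Copies of these families can share probe sequence, so which copy changed is uncertain.

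Among secreted oocyte factors, Gdf9, a TGF-beta ligand that oocytes send to their follicle cells, read 0.59, -0.20 and -0.52 in KO 1 to KO 3, against 1.06, 0.82 and 1.81 in WT 1 to WT 3. The groups did not overlap, though KO 1 and WT 2 were near each other. Gdf9 changed by -1.27 (SE 0.27, adjusted p = 0.0218; 0.0948 with the block), at -2.34 in run A and -0.74 in run B, and the call ended without KO 2, KO 3, WT 1 or WT 3 (-1.65 to -0.74). It was the single call among 15 tested ligands of its list (median 0.03), and its partner Bmp15, above background on 0 KO arrays and 2 WT arrays, was at least 1.36-fold lower in KO without a call. Among 25 genes of oocyte growth and meiotic resumption, 0 rose and 2 fell (median -0.30): Fbxo43, which encodes the meiotic inhibitor EMI2, by -0.98 and Dcaf17 by -0.34 (adjusted p = 0.014 and 0.0336; 0.0645 and 0.117 with the block). Dimmer probes of Dcaf17 gave -0.36 and 0.15. Both calls ended without KO 2, KO 3 or WT 3, and that of Dcaf17 also without WT 1 or WT 2, with single omissions at -1.21 to -0.82 and -0.41 to -0.25.

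None of 17 oocyte transcription factor genes was called by limma (median -0.24). Figla read 4.02, 3.55 and 3.20 in KO arrays, against 3.75, 3.75 and 3.64 in WT arrays, with KO 1 above all WT arrays, and gave -0.13. Nobox gave -0.64, Lhx8 -0.43 and Tbpl2, a germ cell TATA-box binding protein, -1.03, with adjusted p from 0.149 to 0.754 over these 4 genes. None of 6 zona pellucida and egg coat genes was called by limma either (median -0.47), with Zp1 at -0.66, Zp2 at -0.75 and Zp3 at -1.36. Dppa3, a maternal-effect gene of germ cells also called Stella, read 5.22, 3.48 and 3.47 in KO 1 to KO 3, against 4.72, 4.79 and 5.25 in WT 1 to WT 3. KO 2 and KO 3 were below all WT arrays and KO 1 was above WT 1 and WT 2, and the gene was not called (-0.87, adjusted p = 0.236).

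**Figure D2:**
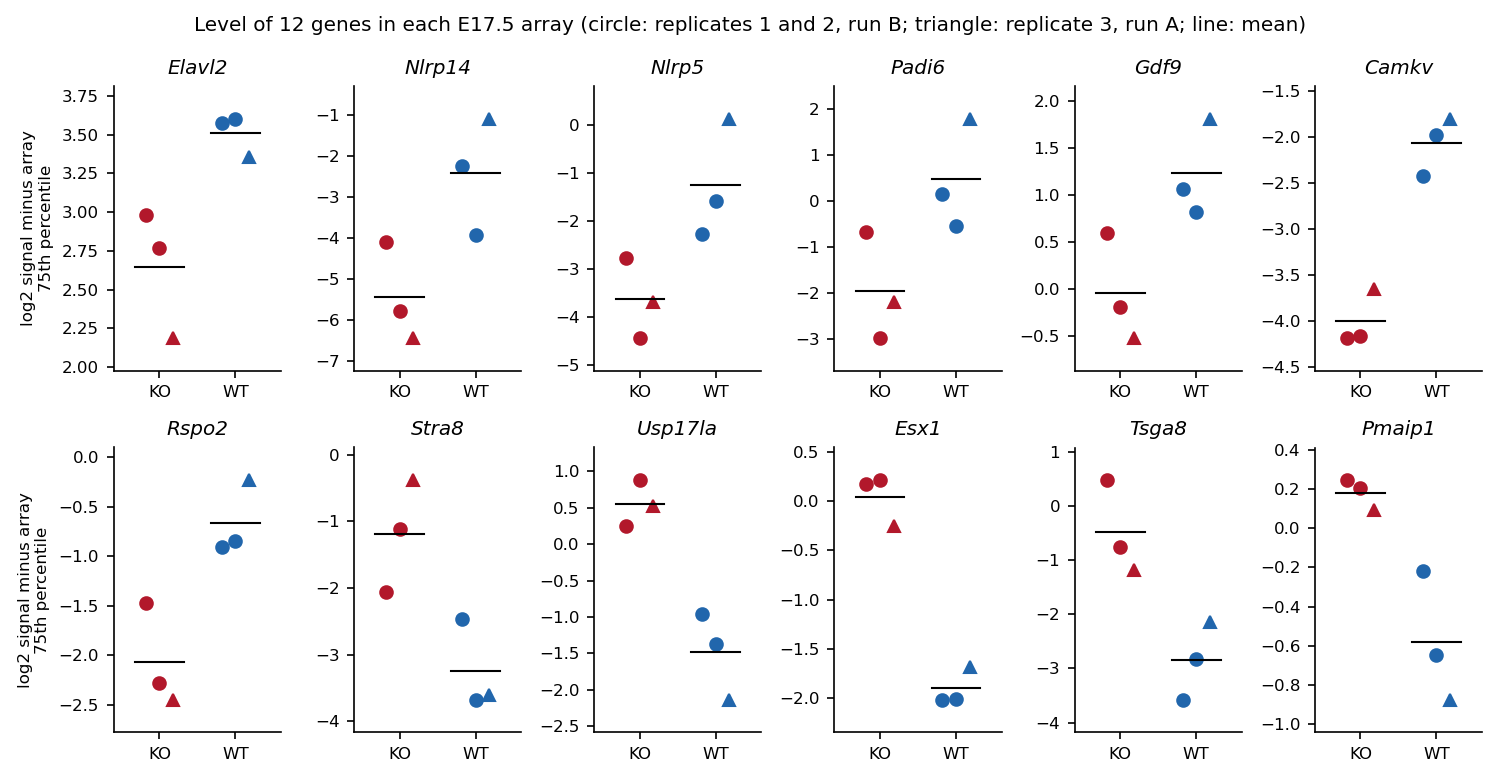
Level (log2 signal minus the array's 75th percentile) of 12 genes in each KO array (red, left in each panel) and WT array (blue, right), with circles for replicates 1 and 2 (run B), triangles for replicate 3 (run A) and a line at the group mean; each panel has its own vertical scale. The oocyte genes Nlrp14, Nlrp5, Padi6 and Gdf9 have WT 3 as the highest point, KO 1 as the highest KO point, and Camkv and Esx1 have gaps wider than the spread in either group.

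The general germ cell markers were not called by their brightest probes. Ddx4, an RNA helicase of germ cells, read 3.50, 3.24 and 2.97 in KO arrays, against 3.47, 3.46 and 3.78 in WT arrays, and gave -0.33 (adjusted p = 0.182). Dazl, Mael and Sycp3 gave -0.14, -0.30 and -0.21. A dimmer probe of Dazl gave -0.69 (limma, adjusted p = 0.0398 over all kept probes), with all KO arrays below all WT arrays. In whole gonads, fewer cells of a type and less RNA per cell cannot be told apart. Of 31 pan-germ cell genes 2 rose and 2 fell, with a median of -0.23 (run A -0.54, run B -0.02). The falls were Piwil4, a piRNA-pathway Argonaute, at -1.50 (adjusted p = 0.018; 0.0946 with the block) and Rnf17, a germ granule Tudor protein, at -0.72 (adjusted p = 0.044; 0.0433 with the block). The rises were the germ cell surface gene Tex101 at 0.53 and the X-linked Tex13b at 0.72 (adjusted p = 0.034 for both; 0.128 and 0.0563 with the block). Single omissions gave -1.89 to -0.88 for Piwil4, -0.89 to -0.55 for Rnf17, 0.49 to 0.59 for Tex101 and 0.56 to 0.85 for Tex13b; each call ended without KO 2, KO 3, WT 1 or WT 3, and that of Tex101 also without WT 2 and of Tex13b without KO 1 or WT 2.

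Stra8, the gene that retinoic acid switches on at meiotic entry, was higher in KO gonads. It read -2.06, -1.11 and -0.39 in KO 1 to KO 3, against -2.46, -3.67 and -3.61 in WT 1 to WT 3. The groups did not overlap, KO 1 and WT 1 were the closest pair, and KO 3 was the highest. Stra8 rose by 2.06 (SE 0.43, adjusted p = 0.02; 0.087 with the block), at 3.23 in run A and 1.48 in run B, and its call ended without KO 2, KO 3, WT 2 or WT 3 (1.48 to 2.58). It was the single call among 20 genes of the retinoic acid list (median 0.08). Rec8, a meiotic cohesin that retinoic acid also induces, gave 0.36, and Cyp26b1, which degrades retinoic acid, -0.43, and neither was called.

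Of the synaptonemal complex, the protein scaffold between paired chromosomes, 0 of 11 genes rose and 2 fell (median -0.06), where 2.81% of all fell. Syce1, of its central element, read 2.92, 2.56 and 2.72 in KO arrays, against 3.16, 3.46 and 3.77 in WT arrays, and changed by -0.73 (SE 0.14, adjusted p = 0.014; 0.0819 with the block). Its KO arrays were all below its WT arrays. Sycp1, of the transverse filaments, changed by -0.40 (adjusted p = 0.0443; 0.0682 with the block). Of 25 recombination genes only 4930432K21Rik was called, at -0.45 (adjusted p = 0.0133; 0.0623 with the block), and of 14 cohesin and telomere attachment genes only Terb2, which tethers telomeres to the nuclear envelope in meiosis, at -0.44 (adjusted p = 0.0493; 0.0915 with the block). Dmc1, the meiotic recombinase, gave 0.35 and was not called. All 4 calls ended without KO 2, KO 3 or WT 3, and some without other arrays, at values within -0.87 to -0.56 for Syce1, -0.45 to -0.31 for Sycp1, -0.47 to -0.43 for 4930432K21Rik and -0.46 to -0.43 for Terb2. The 21 genes of primordial germ cells and pluripotency had 1 rise, the alkaline phosphatase gene Alpl at 0.42 (adjusted p = 0.0479; 0.121 with the block; lost without KO 1, KO 2, WT 1 or WT 2, 0.34 to 0.58).

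Some of the largest rises were in genes better known from the 2-cell embryo. Of 10 tested genes of that list 3 rose and 0 fell, where 1.33% of all genes rose. The list's median was 0.73 (run A 0.84, run B 0.70), and all 3 rises kept their call with the block. Usp17la, a deubiquitinase gene, read 0.25, 0.88 and 0.53 in KO arrays, against -0.96, -1.37 and -2.14 in WT arrays. Every KO array was more than 1 unit above every WT array. Usp17la rose by 2.04 (SE 0.36, adjusted p = 0.0121; 0.03 with the block), and its relative Usp17lb, not well above background on any WT array, was at least 3.27-fold higher in KO (adjusted p = 0.00236; 0.0257 with the block). Zscan4c, of a telomere-associated zinc finger family of 2-cell embryos, was above background on 3 KO arrays and 1 WT array and rose by 2.55 (SE 0.41, adjusted p = 0.00756; 0.03 with the block). The Usp17 and Zscan4 genes have near-identical copies, so which copy changed is uncertain. Without KO 3 or WT 3 the calls of Usp17la and Zscan4c ended, at 1.73 and 2.23, and that of Usp17la also without KO 2, while Usp17lb was called under each array left out.

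Genes of the X-linked and cancer-testis germline list gave 4 rises and 0 falls among 21 tested, where 1.33% of all genes rose. The list's median of 0.36 came from run B (0.60) and not run A (0.02). Esx1, an X-linked homeobox gene, read 0.18, 0.21 and -0.26 in KO arrays, against -2.02, -2.01 and -1.68 in WT arrays. The KO arrays were close together, as were the WT arrays, with a wide gap between the groups. Esx1 rose by 1.95 (SE 0.22, adjusted p = 0.00236; 0.0313 with the block) and was called under each array left out (1.86 to 2.21). Tsga8, a spermatid gene on the X, read 0.48, -0.75 and -1.18 in KO arrays, against -3.57, -2.83 and -2.14 in WT arrays, and rose by 2.37 (SE 0.44, adjusted p = 0.0133; 0.0776 with the block). Here the difference was 3.07 in run B and 0.96 in run A, and without WT 1 the call ended, with single omissions at 1.81 to 3.07. Nxf3, an RNA export factor relative, rose by 0.78 (adjusted p = 0.0123; 0.0577 with the block; lost without KO 2, 0.63 to 0.92), and the fourth was Tex13b.

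More X-linked genes stood among the rises outside that list, namely Radx, a replication fork protein, at 1.04, Fmr1nb, a cancer-testis gene, at 0.96, and Tent5d, a poly(A) polymerase of germ cells, at 0.92 (adjusted p = 0.0138, 0.014 and 0.0404). With the block Radx and Fmr1nb kept their call (adjusted p = 0.0257 and 0.0443) and Tent5d did not (0.0862). Tent5d was lost without any single array (0.78 to 1.09), Radx without KO 3, WT 2 or WT 3 (0.92 to 1.13) and Fmr1nb without KO 2 or WT 2 (0.83 to 1.14). Over the whole X chromosome, by RefSeq symbol, 17 of 594 genes rose and 15 fell, shares of 2.86% and 2.53% against 1.33% and 2.81% of all genes tested.

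Rises on other chromosomes included Yod1, a deubiquitinase, at 1.17 (adjusted p = 0.0104; 0.0298 with the block), the homeobox gene Dlx1 at 1.24 (adjusted p = 0.0239; 0.103 with the block) and Lim2, a lens membrane protein gene, at 2.27 (adjusted p = 0.0165; 0.0795 with the block; above background on 3 KO arrays and 1 WT array). Yod1 read -0.16, 0.00 and -0.46 in KO arrays, against -0.95, -1.54 and -1.66 in WT arrays, with no overlap. Dlx1 read -2.08, -3.25 and -3.62 in KO arrays, against -4.46, -4.17 and -4.03 in WT arrays, with KO 1 far above the others, and gave 0.41 in run A and 1.66 in run B. The olfactory receptor gene Olfr922 was at least 1.81-fold higher in KO (adjusted p = 0.00335; 0.0304 with the block) and was not above background on any WT array. Hoxd3 rose by 0.90 (adjusted p = 0.00828; 0.0468 with the block) by its brighter probe, while its other probe gave -0.33. The call of Dlx1 ended without WT 1 or WT 2 (0.79 to 1.66, the lowest without KO 1), that of Lim2 without any array but KO 1 (2.15 to 2.41), that of Yod1 without KO 2, KO 3 or WT 3 (1.01 to 1.34) and that of Hoxd3 without KO 3 or WT 3 (0.78), while Olfr922 was called under each array left out.

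Genes of the p53 response, which oocytes use to remove cells with unrepaired DNA breaks, gave 4 rises and 0 falls among 29 tested, where 1.33% of all genes rose and 2.81% fell, with a median of 0.17 (run A 0.26, run B 0.16) against 0.05 over all genes. Pmaip1, which encodes the death-promoting BH3-only protein NOXA, read 0.25, 0.21 and 0.10 in KO 1 to KO 3, against -0.22, -0.65 and -0.88 in WT 1 to WT 3. No KO array reached a WT array, and the KO arrays varied little. Pmaip1 rose by 0.76 (SE 0.14, adjusted p = 0.0121), Sesn2, a stress-induced inhibitor of mTORC1, by 0.49 (SE 0.07, adjusted p = 0.00459), Phlda3, an AKT inhibitor, by 0.35 (adjusted p = 0.0353) and Gdf15, a stress cytokine, by 0.50 (adjusted p = 0.0443). None of the 4 was called with the block (adjusted p = 0.0538, 0.0514, 0.117 and 0.0853). Sesn2 was called under each array left out (0.43 to 0.55), Pmaip1 was not without KO 3 or WT 3 (0.66), Phlda3 not without KO 2, KO 3 or any WT array (0.32 to 0.39), and Gdf15 not without any single array (0.43 to 0.57). A dimmer probe of Sesn2 gave 0.225 (limma, adjusted p = 0.172 over all kept probes), with KO 1 below WT 3. Trp63, whose oocyte isoform guards the germ line, gave -0.96 and was not called.

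The BCL2 family, which sets the threshold of apoptosis, had 3 rises and 0 falls among 15 tested. The list's median was 0.12, and 1.33% of all genes rose. The rises were Pmaip1, counted in the p53 list too, the pro-survival gene Bcl2l1 at 0.36 and the effector Bok at 0.32. For Bcl2l1 and Bok limma gave adjusted p = 0.0206 and 0.0367, and 0.101 and 0.129 with the block. Dimmer probes of Bcl2l1 gave -0.05 and 0.24. In the immediate early and stress list 2 of 24 rose and 0 fell (median 0.29), where 1.33% of all genes rose. Hmox1, the inducible heme oxygenase, rose by 0.73 and the chaperone gene Dnajb1 by 0.33 (adjusted p = 0.0341 and 0.0197, with the block 0.0592 and 0.0938). The dimmer probe of Dnajb1 gave 0.11. All 4 calls ended without KO 2, KO 3 or WT 3, and some without other arrays, with single omissions at 0.25 to 0.45 for Bcl2l1, 0.26 to 0.37 for Bok, 0.58 to 0.88 for Hmox1 and 0.30 to 0.36 for Dnajb1.

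Among signalling genes, Id1, a BMP-induced inhibitor of basic helix-loop-helix factors, read 4.70, 4.88 and 4.30 in KO arrays, against 5.60, 5.54 and 5.17 in WT arrays. All KO arrays were lower, with similar gaps in the runs. Id1 changed by -0.81 (SE 0.14, adjusted p = 0.0119; 0.0257 with the block), at -0.86 in run A and -0.78 in run B, a dimmer probe gave -0.69, and the call ended without KO 3 or WT 3. Id3 gave -0.34 and Id4, by its brightest probe, -0.41, and neither was called. A dimmer probe of Id4 gave -0.58 (limma, adjusted p = 0.038 over all kept probes), with all KO arrays below all WT arrays. The 7 genes of that list had a median of 0.11. Rspo2, a WNT-amplifying ligand that oocytes make, read -1.47, -2.28 and -2.45 in KO arrays, against -0.90, -0.85 and -0.23 in WT arrays. It changed by -1.41 (SE 0.22, adjusted p = 0.00747; 0.053 with the block), was called under each array left out (-1.75 to -1.0), and was the single call among 31 WNT genes (median 0.11).

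In the KIT, PI3K and mTOR list, the pathway that controls primordial follicle activation, 0 of 20 rose and 2 fell (median -0.07). Over all genes, 2.81% fell. Tsc1, an inhibitor of mTORC1, read -0.89, -0.82 and -0.38 in KO arrays, against -0.08, 0.02 and 0.31 in WT arrays, and changed by -0.78 (SE 0.14, adjusted p = 0.0133; 0.0443 with the block). The groups did not overlap. Its other 3 probes gave -0.69, -0.52 and -0.10. Pdpk1, the kinase that activates AKT, changed by -0.35 (adjusted p = 0.0352; 0.0799 with the block), and Kit, the receptor of oocytes, gave -0.61 and was not called. The call of Tsc1 ended without KO 2, KO 3 or WT 3 (-0.82 to -0.74) and that of Pdpk1 without any single array (-0.38 to -0.30).

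In other pathway lists, Gja4, the oocyte connexin of gap junctions to follicle cells, changed by -0.83 (SE 0.13, adjusted p = 0.00634; 0.0539 with the block). Gja4 read 1.09, 0.80 and 1.03 in KO arrays, against 1.5, 1.71 and 2.19 in WT arrays, with no overlap. In the cholesterol synthesis list (25 genes, median 0.17), Fdft1, squalene synthase, changed by -0.63 (adjusted p = 0.00747; 0.0553 with the block) and Tm7sf2, a sterol reductase, by 0.27 (adjusted p = 0.0307; 0.101 with the block). The calls of Gja4 and Fdft1 ended without KO 3 or WT 3 (-0.66 and -0.57), and that of Tm7sf2 without KO 2, KO 3 or any WT array (0.23 to 0.33).

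Because ELAVL2 is an RNA-binding protein, translation and RNA decay genes were also listed. None of 35 germ cell translational regulators (median 0.01) and none of 37 processing body, deadenylation and decapping genes (median -0.05) was called by limma; the smallest adjusted p values were 0.0517 and 0.0526. Of 26 translation initiation genes 0 rose and 3 fell (median 0.07), where 2.81% of all genes fell. Eif5, a GTPase-activating initiation factor, read 3.78, 3.67 and 3.24 in KO arrays, against 4.42, 4.27 and 3.70 in WT arrays, and changed by -0.57 (SE 0.08, adjusted p = 0.00335; 0.027 with the block). Both genotypes were lowest in replicate 3, and KO was lower in each run. The other probes of Eif5 gave -0.15 and -0.08. Eif4ebp2, a repressor of cap-dependent initiation, changed by -0.81 (adjusted p = 0.0285, with the block 0.0761). Its call was lost without KO 2, WT 1 or WT 2 (-1.05 to -0.66). Eif4e3, a cap-binding protein, changed by -0.50 (adjusted p = 0.0352, with the block 0.0588). The call of Eif4e3 was lost without any array but WT 2 (-0.60 to -0.42), and its dimmer probe gave -0.06.

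Further falls were in genes of no list above. Camkv, a kinase-like protein of neurons, read -4.19, -4.16 and -3.66 in KO arrays, against -2.43, -1.98 and -1.81 in WT arrays. The gap between the groups was wider than the spread within either. Camkv changed by -1.93 (SE 0.20, adjusted p = 0.00236, with the block 0.0257), at -1.85 in run A and -1.97 in run B. Its dimmer probe gave -0.89 (limma, adjusted p = 0.026 over all kept probes). By that probe KO 3 (-2.99) lay above WT 1 (-3.54) and WT 2 (-3.18). Lctl, a lactase-like protein gene, changed by -1.57 (adjusted p = 0.00335; 0.0353 with the block), Umodl1, a uromodulin-like gene, by -1.78 (adjusted p = 0.00571; 0.0313 with the block; above background on 2 KO arrays and 3 WT arrays) and 6720468P15Rik by -1.53 (adjusted p = 0.0047; 0.0257 with the block). Lower bounds were 1.76-fold for the fall of Cldn16, a claudin gene, and 2.64-fold for that of Ccdc60 (adjusted p = 0.00292 and 0.00428; 0.027 for both with the block), with no KO array well above background. All 6 genes were called under each array left out.

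The neuronal and sympathoadrenal list had 0 rises and 1 fall among 26 tested (median -0.02). Th, tyrosine hydroxylase, read -3.64, -5.86 and -5.37 in KO arrays, against -2.68, -2.97 and -1.28 in WT arrays, with no overlap, and changed by -2.65 (SE 0.54, adjusted p = 0.0197; 0.0781 with the block). The call ended without KO 2, KO 3, WT 1 or WT 3 (-3.49 to -1.93). Of the defining markers of neural crest and chromaffin cells, Dbh was above background on 0 KO arrays and 3 WT arrays and was at least 1.88-fold lower in KO without a call (adjusted p = 0.272). Its part in the change of Th was not tested.

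The somatic cell lists held few calls. Of 28 pregranulosa genes 1 rose, Nr2f2, a nuclear receptor of interstitial and supporting cells, at 0.39 (adjusted p = 0.049; 0.154 with the block; lost without any single array, 0.30 to 0.46; another probe -0.04). The markers Foxl2, Fst and Lgr5 gave -0.21, -0.50 and -0.05, Wnt4, Rspo1 and Kitl gave 0.14, 0.24 and 0.26, and none of the 6 was called, and the summed pregranulosa markers ran from 6.23 to 6.4 in KO arrays and from 6.05 to 6.16 in WT arrays. Of 19 genes of a Sertoli-associated list 1 fell, Tesc, a calcium-binding protein gene, at -1.35 (adjusted p = 0.0259; 0.106 with the block; lost without KO 2, KO 3, WT 1 or WT 3, -1.76 to -0.77). None of 15 steroidogenic (median 0.18), 5 adrenal cortex (0.26), 20 mesonephros and oviduct (0.11), 15 surface epithelium (0.11), 24 stroma and collagen (0.11) and 10 smooth muscle genes (0.10) was called by limma.

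Of 22 endothelial genes 3 rose (list median 0.19), where 1.33% of all genes rose. These 3 were the transcription factor genes Sox18 at 0.41, Erg at 0.31 and Fli1 at 0.45 (adjusted p = 0.00903, 0.0417 and 0.0433, with the block 0.0471, 0.108 and 0.133). The summed defining markers Pecam1, Cdh5, Kdr and Tek lay between 2.53 and 2.70 in KO arrays and between 2.72 and 2.76 in WT arrays. Of 20 macrophage and leukocyte genes Cd68 rose by 0.53 (adjusted p = 0.034; 0.103 with the block). All 4 calls ended without KO 2, KO 3 or WT 3, and some without other arrays, with single omissions at 0.37 to 0.48 for Sox18, 0.28 to 0.34 for Erg, 0.40 to 0.50 for Fli1 and 0.39 to 0.68 for Cd68.

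Red cell genes differed most between the replicate 3 arrays. None of 21 red cell genes was called, but their median change was 1.39, at 3.13 in run A and 0.32 in run B. Centred on each gene's mean over the 6 arrays, the list's median level was -0.58, 0.64 and 2.37 in KO 1 to KO 3, against 0.27, -0.93 and -1.35 in WT 1 to WT 3, so KO 3 was the highest and WT 3 the lowest. The summed germ cell markers read 6.68, 6.03 and 5.87 in KO 1 to KO 3, against 6.47, 6.54 and 6.76 in WT 1 to WT 3, with KO 3 the lowest and WT 3 the highest. The oocyte NLRP list also differed more in run A, its median being -3.07 within run A and -1.42 within run B. For cell division genes the median was 0.22, and limma called 0 of 35 (smallest adjusted p = 0.076), at 0.38 in run A and 0.10 in run B. The part of blood RNA and of germ cell content in the changes of this comparison was not tested.

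**Figure D3:**
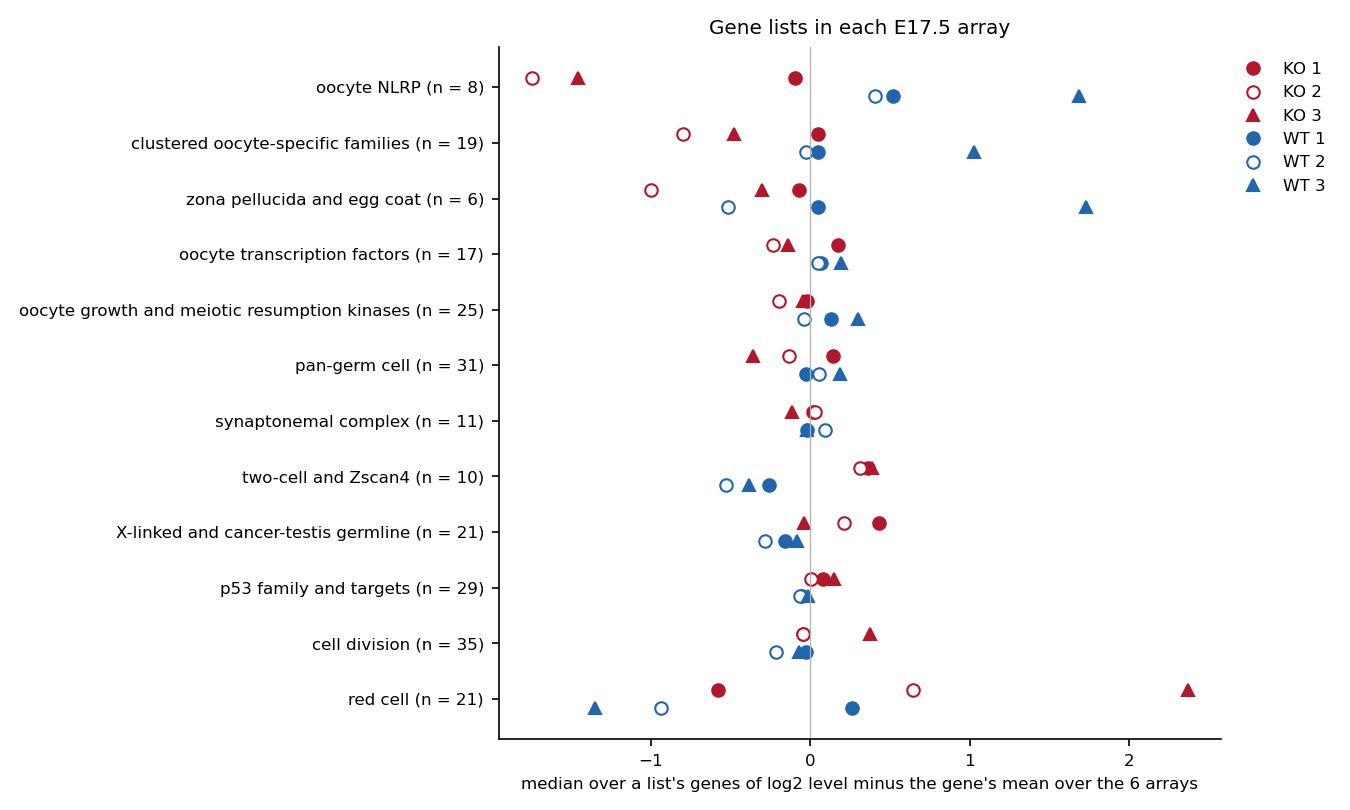
For 12 gene lists (number tested in brackets), the median over the list's genes of the level on an array minus the gene's mean over the 6 arrays (log2), with KO arrays in red above WT arrays in blue and triangles for replicate 3. In the oocyte NLRP list KO 1, KO 2 and KO 3 lie at -0.09, -1.75 and -1.45, against 0.52, 0.41 and 1.68 in WT 1, WT 2 and WT 3, and in the red cell list KO 3 stands at 2.37 and WT 3 at -1.35.

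Genes beside Elavl2 on chromosome 4 were also counted. Within 20 Mb of Elavl2 (mm9), 18 of 183 tested genes were called, 9.84% against 4.14% of all genes, with 6 rises and 12 falls including Elavl2. They include Gm38423, at least 2.31-fold higher in KO (adjusted p = 0.0259; 0.112 with the block), Ccdc171 at -1.43 (adjusted p = 0.00692; 0.0257 with the block), Sh3gl2, an endophilin gene, at -1.12 (adjusted p = 0.00292; 0.027 with the block), Fyb2 at -2.14 and the complement gene C8b at -1.12 (adjusted p = 0.0324 and 0.034; 0.0922 and 0.112 with the block). Ccdc171 read -2.11, -2.84 and -2.71 in KO arrays, against -0.75, -1.34 and -1.30 in WT arrays, and it gave -1.41 within run A and -1.43 within run B. By this probe, its brightest, the groups were well apart. Its other kept probes gave -0.81 (limma, adjusted p = 0.0457 over all kept probes) and -0.14. By the last of these, the KO and WT arrays overlapped. The strain of the chromosome stretch around the allele is not given in the sources used here, so an effect of linked sequence and an effect of the lost gene cannot be told apart. Ccdc171 and Sh3gl2 were called under each array left out; Fyb2 was lost without KO 2, KO 3, WT 1 or WT 3 (-2.94 to -1.29), and C8b (-1.39 to -0.88) and Gm38423, above background on no WT array, without any array but KO 1.

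The change at E17.5 was set against that at P0 in the same fit, as the difference of the 2 genotype effects (E17.5 minus P0). It was called for 2007 genes, 10.4% of those tested, 1181 positive and 826 negative, and for 1062 with the block. Scaling by the array median in place of the 75th percentile turned the split, to 31.4% positive in place of 58.8%, and moved the median of all genes to -0.14. It was called, and positive, for 3 of 6 egg coat genes and for 5 of 21 maternal-effect and lattice genes. Zp3 gave -1.36 at E17.5 and -5.32 at P0 (difference 3.96, SE 0.59, adjusted p = 0.00215), Npm2 -1.22 and -5.04 (3.82, adjusted p = 2.9e-05), Gdf9 -1.27 and -3.30 (2.02, adjusted p = 0.00697) and the maternal-effect gene Zar1 -0.55 and -4.80 (4.25, adjusted p = 0.000568). Oosp1, an oocyte-secreted protein gene, was above background on no array at E17.5 and had a fitted change of -5.10 at P0. Nlrp5 and Dppa3 gave -2.39 and -0.87 at E17.5 and -1.69 and -0.38 at P0, with no call of the difference. For Padi6 and Nlrp14 the difference between the stages was not called (2.02 and 1.43, adjusted p = 0.11 and 0.354).

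Other genes differed from P0 in direction or ran the other way. The ID genes gave -0.81, -0.34 and -0.41 for Id1, Id3 and Id4 at E17.5 and 0.09, 0.76 and 0.72 at P0 (differences -0.89, -1.10 and -1.14, adjusted p = 0.0169, 0.000577 and 0.0042). Wnt3, a WNT ligand, gave -0.69 at E17.5 and 2.00 at P0 by its brighter probe (difference -2.69, adjusted p = 0.000568). The E17.5 change of Wnt3 was not called (limma, adjusted p = 0.105), at -0.16 in run A and -0.96 in run B. By its other probe Wnt3 gave 0.21 at E17.5 and 1.47 at P0, positive at both stages. Gdf15 rose by 0.50 at E17.5 and changed by -0.93 at P0 (difference 1.43, adjusted p = 0.000656), while Pmaip1 gave 0.76 at E17.5 and 1.46 at P0 (difference -0.70, adjusted p = 0.038; 0.076 with the block). Usp17lb and Olfr922 had larger fitted changes at E17.5 than at P0 (differences 2.00 and 2.74, adjusted p = 0.029 and 0.00782; 0.078 and 0.037 with the block), sizes that rest on WT probes not well above background at E17.5. Stra8 gave 2.06 at E17.5 and 3.26 at P0, a difference that was not called (adjusted p = 0.221).

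Against E15.5, the difference of genotype effects was called for 59 genes, 0.306% of those tested, 7 positive and 52 negative, and for 1 gene with the block. All E15.5 arrays were of run A, while each E17.5 genotype had arrays of both runs. The median of this difference over all genes was 0.03 with and without the run term, but without the term 11 genes were called. Camkv gave -1.93 at E17.5 and -0.27 at E15.5 (difference -1.66, SE 0.28, adjusted p = 0.0391). Ccdc60, Umodl1, Lctl and 6720468P15Rik fell at E17.5, against 0.51, 0.45, 0.21 and 0.47 at E15.5 (differences -2.31, -2.23, -1.78 and -2.0, adjusted p = 0.0315 to 0.0391), and the size for Ccdc60 rests on KO probes not well above background at E17.5. Syce1 and Terb2 gave 0.31 and 0.66 at E15.5 (differences -1.04 and -1.10, adjusted p = 0.0483 and 0.0302). Fgf21, a hormone gene of the FGF family, was above background on no array at E17.5, had fitted changes of 2.89, 0.07 and -2.01 over the 3 stages in turn, and was the gene still called in the E17.5 minus E15.5 difference with the block (-2.82, adjusted p = 0.0197; 0.0065 with the block). Over single omissions the count ran from 0 to 264.

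**Figure D4:**
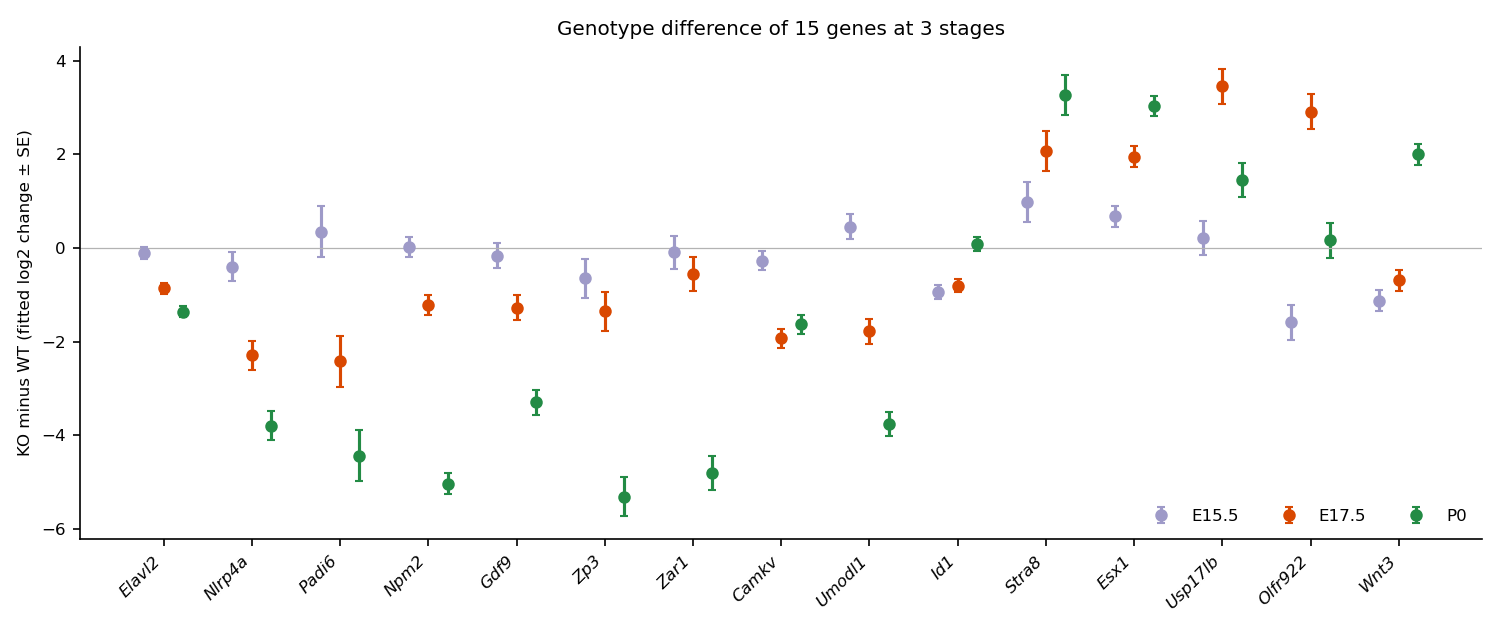
Genotype difference (KO minus WT, fitted log2 change with bars of ± SE) of 15 genes at the 3 stages, from the earliest at the left to P0 at the right for each gene. Npm2, Gdf9, Zp3 and Zar1 lie far lower at P0 than at E17.5, Camkv is at -1.93 at E17.5 and near 0 at E15.5, and Id1 is below 0 at E15.5 and E17.5 and near 0 at P0. Nlrp4a in KO arrays and Usp17lb and Olfr922 in WT arrays were not well above background at E17.5.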

How the data were processed

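RNA of 18 samples of whole XX gonads (3 for each of 6 groups of stage and genotype) was labelled with Cy3 and hybridised to 1-colour Agilent arrays of design 14868, per the labels. The intensity used is the background-subtracted, processed signal the authors made with Agilent Feature Extraction. Its version reads 10.7.3.1 in the file headers, whereas the submitters' processing notes give 9.5. The deposited series matrix holds log2 values that equal the scanner signal times 1 constant per array, and served as an alternative.

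Control probes and spots marked as outliers (51 to 109 per array) were left out, and each array's 75th percentile was subtracted from the log2 signal. Probes had to be well above background on all 3 arrays of some group, and the brightest kept probe stood for a gene. Of 41174 probes, 28561 were named through RefSeq accessions (1542 got a new name) and 12613 carry the file's name. Coordinates are on mm9, as in the files. limma 3.58.1 in R 4.3.3 fitted the 6 groups and the run over all 18 arrays, with 11 residual degrees of freedom, and it was tested on simulated data. Plots used Python 3.11.15 and matplotlib 3.10.9. Run and slide were read from the files. For a gene not well above background on any array of 1 group, the fold is a bound. It sets the bright group's mean against the mean, over the dim group's arrays, of the higher of 2 signals, its own and the lowest still well above background, on normalized log2 values.

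Same-numbered KO and WT arrays deviated together from their group means (correlations across genes of 0.12, 0.398 and 0.451 for replicates 1, 2 and 3), so the replicate number was taken to pair the arrays. Arrays of run B with different numbers also gave 0.282 and 0.322, so number and run cannot be told apart here. Values with the number as a block are given where it ends a call. Named were Elavl2, members of 46 gene lists in the account of their list, up to 25 rises and 25 falls that were largest among called genes with a symbol, above background in a group, without overlap and of like sign in both runs, and up to 8 each way in each difference between stages; the text prints part of these. The members and lists were chosen with earlier results of these data known. Alternatives were other scalings, filters, probe rules, moderation, array weights, slide as a random block, fewer arrays, and each E17.5 array left out. List medians within each run, and list counts with an array left out or with the block, were chosen after seeing the data. Promoters are from a RefSeq table on GRCm38.p6, matched by symbol. A few listed genes and the marker sums that hold them are not reported here.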

Additional observations from a re-analysis of the deposited data

Results flagged for a closer look

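The genotype effect at E17.5 differed from that at P0 for 2007 genes and from that at E15.5 for 59 genes, by limma's test of the difference itself. The values below are differences of log2 changes for genes named here, E17.5 minus the other stage, so a positive value can mean a smaller fall.

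Fitted sizes rest on probes not well above background at E17.5 in both genotypes for Oosp1 and Fgf21, in KO for Nlrp4a, Cldn16 and Ccdc60 and in WT for Usp17lb and Olfr922. For these genes they are not measured sizes.

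Against P0, these genes had positive differences: Oosp1 5.38, Zar1 4.25, Zp3 3.96, Npm2 3.82, Zp1 3.68, Tbpl2 2.84, Nlrp9a 2.51, Gdf9 2.02 and Nlrp4a 1.5. Umodl1 (1.98), Tesc (1.5), Fdft1 (0.88), Gja4 (0.64), Tm7sf2 (0.54), Elavl3 (1.14), Hmox1 (0.85), Gdf15 (1.43), Fgf21 (2.08), Usp17lb (2.00), Lim2 (2.34), Olfr922 (2.74) and Hoxd3 (0.78) were positive too. Negative differences were found for Dazl -1.0, Tex101 -0.94, Sycp1 -0.75, Dmc1 -1.32, Radx -1.44 and Esx1 -1.08. Id1 (-0.89), Id3 (-1.10), Id4 (-1.14), Pmaip1 (-0.70), Cldn16 (-1.84) and Wnt3 (-2.69) were negative too. With the replicate block the P0 differences of Nlrp9a, Nlrp4a, Tesc, Gja4, Elavl3, Hmox1, Usp17lb, Lim2, Hoxd3, Dmc1, Esx1, Pmaip1 and Cldn16 lost their call, at adjusted p from 0.0503 to 0.131.

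Against E15.5, Olfr922 (4.50), Usp17lb (3.23) and Hoxd3 (1.16) had positive differences. Negative ones were found for Syce1 (-1.04), Terb2 (-1.10), Tsc1 (-1.16), Sh3gl2 (-1.23), Camkv (-1.66), Lctl (-1.78), 6720468P15Rik (-2.0), Umodl1 (-2.23), Ccdc60 (-2.31), Cldn16 (-2.78) and Fgf21 (-2.82). Every E15.5 array was of run A, and of the genes named here only Fgf21 was called against E15.5 with the replicate block. Groups of 3 arrays were not tested for single arrays far from the rest.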

How the results depend on the processing

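The count of 799 calls at E17.5 moved to 462 with no filter, 348 with no run term, 384 with scaling by the array median (19.5% of them higher in KO, against 32% with the 75th percentile), 77 with array weights and 100 at a 2-fold threshold. The E17.5 arrays alone gave 0 calls with limma without the replicate block, with it, and in run B alone, with 1978, 2974 and 3363 genes at an unadjusted p under 0.05. With the replicate block, over all arrays, 165 genes were called. Leaving out single arrays gave 140 to 1031. The fall of Elavl2 was called in 18 of 21 settings; the call ended with the E17.5 arrays alone (-0.87, with or without the block) and in run B alone (-0.72).

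The 2007 genes that differed from P0 became 1062 with the replicate block, 1031 with no run term, 835 with array weights and 718 at a 2-fold threshold, and 1222 (without KO 2) to 1822 over single omissions. The 59 that differed from E15.5 became 1 with the block, 5 with no filter, 8 with array weights, 10 with slide as a random block, 11 with no run term, 19 with median scaling, 31 at a 2-fold threshold, 100 with normexp and quantile normalization, and 0 (without WT 1) to 264 (without KO 1) over single omissions. Of the 102 named genes called at E17.5, only Elavl1 turned its direction, to -0.041 with the mean of its probes. Of these 102, 31 kept their call with the replicate block, 68 with median scaling, 92 with normexp and quantile normalization and 98 with quantile normalization. Why these counts differ was not tested. Dim genes, above background on few arrays of a genotype, are limited by signal.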

Other observations

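Genes of motile cilia and flagella, a list chosen after the values were seen and therefore given with no test, held 7 falls and 0 rises among 77 genes tested, where 2.81% of all genes fell, with a median of -0.10 against 0.05 over all genes. Ropn1l, a protein of the flagellar radial spoke, read 1.25, 0.85 and 0.85 in KO 1 to KO 3, against 1.95, 2.20 and 2.32 in WT 1 to WT 3, and changed by -1.18. All KO arrays were below all WT arrays. Drc1, of the nexin-dynein regulatory complex, read -1.52, -2.16 and -1.85 in KO arrays, against -0.96, -0.77 and -0.50 in WT arrays, and changed by -1.10. The other falls were Iqca at -1.78, the dynein light chain gene Dynlrb2 at -1.24, Zmynd10, a dynein assembly factor, at -0.90, Enkur at -0.70 and Cfap300 at -0.49. Ropn1l, Drc1 and Zmynd10 were also called with the replicate block (adjusted p = 0.0348, 0.0393 and 0.03) and the other 4 were not (0.0588 to 0.1005), and Ropn1l and Drc1 under each array left out.

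The 20 genes of the mesonephros and oviduct list, a tissue that holds multiciliated cells later in life, had a median of 0.11 and 0 calls. The defining markers Pax2, Pax8, Wnt7a and Ovgp1 were above background on all 6 arrays, with summed levels of -1.23 to -0.81 in KO arrays and -1.59 to -1.14 in WT arrays. Their part in the falls of the cilium genes was not tested.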
